A study of Mus musculus with 48 samples.

Results

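The genes described here are the transcripts through which animal cells answer a shortage of oxygen and run glycolysis. They were taken from the count table by name, as every row whose gene name was one of 35 listed symbols, and 34 of the 35 symbols had such a row among 25528 genes. The remaining symbol, Aldoa, stands in 2 rows whose names carry an Ensembl identifier. The abundant one (Aldoa_ENSMUSG00000030695) and the other (Aldoa_ENSMUSG00000114515) are therefore given beside the 34 members and enter none of their counts. The table covers 48 RNA-seq libraries of mouse Cas9-Hoxb8 cells, which are myeloid progenitors held in culture by the transcription factor Hoxb8 and which carry the Cas9 nuclease. The labels call their cell type GMP, the granulocyte and monocyte progenitor. There were 16 groups of 3 libraries. The genotypes, listed in this order wherever 4 values follow each other, were wildtype, E6l2-KO (Ercc6l2, a helicase-like DNA repair factor, knocked out), Trp53-KO (the p53 gene knocked out) and E6l2-Trp53-KO (both). Cells of each genotype were kept for 48 h after seeding at 250000 cells per well with the solvent DMSO, or with etoposide, which traps topoisomerase II on cut DNA, or after seeding at 4000000 per well (high cell density). The remaining 4 groups were transformed clones named for etoposide, whose RNA was taken with no drug given beforehand. Clones 4 and 6 derive from Trp53-KO cells, and clones 7 and 12 from E6l2-Trp53-KO. The etoposide concentration, whether dense wells also received DMSO, and whether a genotype was 1 clone or a pool are not stated in the labels, so a genotype and the edited line that carries it cannot be told apart. Nothing says that the 3 libraries of a group came from separate cultures, so every p-value measures the spread between libraries, which may be technical.

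The hypoxia-inducible factor HIF is a pair of proteins, an oxygen-regulated alpha subunit such as HIF-1 alpha and the constant partner ARNT. In oxygenated cells the prolyl hydroxylases of the EGLN family mark the alpha subunit, the VHL protein binds the marked form, and the subunit is destroyed. When oxygen is short, the alpha subunit persists and HIF switches on genes for glucose uptake, nearly every step of glycolysis, lactate export, removal of mitochondria and growth of vessels, and also the gene of the hydroxylase EGLN3, which closes a feedback loop. HIF-1 alpha is controlled chiefly at the level of protein, so the Hif1a transcript is a poor gauge of HIF activity. In the body, haematopoietic progenitors live in poorly oxygenated marrow.

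HIF binds short DNA elements with the core letters ACGTG or GCGTG near its target genes. Promoter windows of 300 bases, from 250 before to 50 after a transcription start, were taken from RefSeq (build GRCm38.p6), and 31 of the 34 members matched at least 1 window, with 48 windows in all. The 5 below belong to members that were called higher at density in all 4 genotypes and lower with etoposide in 3 of them. Among such members with a single window, these had the highest median density response over the genotypes. They are printed 5′ to 3′ on the gene's strand, and capitals mark ACGTG or GCGTG on either strand (CACGT and CACGC are their reverse complements, and neighbouring matches run together).
Ankrd37, chr8:45999801-46000100, minus strand: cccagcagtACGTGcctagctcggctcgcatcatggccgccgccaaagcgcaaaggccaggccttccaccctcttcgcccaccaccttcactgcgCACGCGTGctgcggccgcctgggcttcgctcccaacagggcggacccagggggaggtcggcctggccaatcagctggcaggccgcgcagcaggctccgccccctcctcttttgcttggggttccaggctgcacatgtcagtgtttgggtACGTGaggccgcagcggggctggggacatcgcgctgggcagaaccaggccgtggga
Bnip3, chr7:138909457-138909756, minus strand: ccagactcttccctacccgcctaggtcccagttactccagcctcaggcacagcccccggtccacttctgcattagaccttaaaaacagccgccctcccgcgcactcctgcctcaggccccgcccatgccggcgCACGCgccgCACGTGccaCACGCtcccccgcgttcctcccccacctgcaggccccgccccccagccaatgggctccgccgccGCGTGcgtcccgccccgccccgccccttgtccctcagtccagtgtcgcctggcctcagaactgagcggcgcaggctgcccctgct
P4ha1, chr10:59323046-59323345, plus strand: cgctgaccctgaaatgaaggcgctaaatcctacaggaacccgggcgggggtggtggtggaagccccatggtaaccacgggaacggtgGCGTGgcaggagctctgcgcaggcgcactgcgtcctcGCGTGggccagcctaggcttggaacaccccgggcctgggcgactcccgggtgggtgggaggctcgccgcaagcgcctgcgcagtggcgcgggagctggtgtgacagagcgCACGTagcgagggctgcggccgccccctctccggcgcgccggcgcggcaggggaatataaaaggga
Slc16a3, chr11:120948817-120949116, plus strand: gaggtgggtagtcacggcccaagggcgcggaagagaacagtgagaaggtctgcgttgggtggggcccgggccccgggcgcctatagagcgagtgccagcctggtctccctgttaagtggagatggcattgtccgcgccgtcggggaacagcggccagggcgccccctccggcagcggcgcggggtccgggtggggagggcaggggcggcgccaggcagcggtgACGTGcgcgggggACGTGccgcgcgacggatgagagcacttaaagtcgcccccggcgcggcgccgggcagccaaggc
Pgk1, chrX:106186850-106187149, plus strand: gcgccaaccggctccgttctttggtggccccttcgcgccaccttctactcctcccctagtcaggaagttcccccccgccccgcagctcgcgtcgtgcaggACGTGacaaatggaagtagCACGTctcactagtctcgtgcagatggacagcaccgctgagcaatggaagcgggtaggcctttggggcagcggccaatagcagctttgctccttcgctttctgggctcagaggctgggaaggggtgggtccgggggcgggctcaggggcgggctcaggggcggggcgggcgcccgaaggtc
The Pgk1 window holds an ACGTG and a CACGT a short way apart, and the Slc16a3 window holds a pair of ACGTG just before its start. The Bnip3 window holds the palindrome CACGTG, which reads ACGTG on both strands and is also the E-box that MYC and its relatives bind.

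At least 1 core was found in 39 of the 48 member windows, that is 81.2%, against 43.8% of all 32851 promoter windows of the same length. Both cores contain CG, and the member windows were richer in it, with a mean of 20.96 CG pairs and 62.6% G and C per window against 12.4 and 53.8% over all windows. Genes of the citric acid cycle, with 21.7 CG pairs per window, held a core in 13 of 18 windows. A match of 5 letters is a description of the sequence and no record of binding. Of the 31 members with a window, Tpi1 and Gpi1 held no core in any of theirs.

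Library totals ran from 22500222 to 114409923 counts, and 3 libraries stood apart in depth: E6l2-Trp53-KO etoposide replicate 3 (40905489 counts), clone 4 replicate 3 (68428115) and clone 12 replicate 3. They are also the first 3 columns of the table, apart from the other libraries of their groups. The first and the last of these differed from the other libraries of their groups by chi-square values of 46.6 to 73.5 per degree of freedom over genes, and all other pairs of libraries of 1 group by 2.40 to 21.9. Trp53 stood at 77.1 to 83.0 CPM (counts scaled to a common library size) in wildtype DMSO and at 28.1, 29.2 and 29.3 CPM in Trp53-KO DMSO, whereas Ercc6l2 transcript was not lower in E6l2-KO by the test. Ercc6l2 read 28.1, 29.2 and 26.5 CPM there against 31.5, 31.7 and 30.7 in wildtype DMSO, so Ercc6l2 counts do not check that label. E6l2-Trp53-KO DMSO had 25.7, 26.5 and 25.3 CPM of Trp53. In the clones Trp53 read 11.01 to 13.98 CPM in clones 4 and 6 and 33.4 to 40.4 in clones 7 and 12, a log2 difference of 1.64 ± 0.097 between clones of the genotypes (edgeR adjusted p = 0.00102). Progenitor genes were present in untransformed cells (Mpo 1815 to 2958 CPM, Cd34 1179 to 1558, Cebpa 171 to 275), beside the mast cell protease gene Cpa3 at 1027 to 2566 CPM, while Csf1r was near 0. The 10 progenitor markers summed to 6320 to 10620 CPM in untransformed libraries and to 4783 to 5430 in the transformed clones. Within that list Mpo stood between 0.796 and 69.3 CPM in the clones and Cebpa between 0.159 and 8.84, Ctsg at 1479 to 2138, Cd34 at 608 to 970 and Csf1r at 1.21 to 52.03, and Kit was higher, at 2284 to 2724 CPM against 303 to 472. The 5 mast cell and basophil markers summed to 32930 to 46490 CPM in the clones against 1223 to 2763 before, although Mcpt8 was lower, at 11.5 to 24.1 CPM against 87.5 to 163. In bulk RNA, fewer cells of a type and less RNA per cell cannot be told apart.

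In wildtype DMSO cells the levels of the members spanned a wide range. Per kilobase of exon, Gapdh was highest at 724 CPM per kb, followed by Pgk1 at 383, Pgam1 at 344, Pkm at 281, Tpi1 at 252, Eno1 at 182, Ldha at 177 and Gpi1 at 104 CPM per kb, all enzymes of the main glycolytic chain. The best-read hypoxia genes outside glycolysis, Egln3, Higd1a and Bnip3, lay close together at 41.0, 39.6 and 37.8 CPM per kb. Ankrd37, Slc16a3, Ak4, Ndrg1 and Pfkfb4 lay low, between 1.07 and 5.71 CPM per kb. Aldoc, a minor aldolase, had 0.292 and P4ha2 0.0242 CPM per kb. P4ha2 had too few counts for a test in untransformed cells, with 0 to 0.511 CPM per library, where 3 counts, the limit that a count of 0 allows, correspond to 0.133 CPM in the shallowest library. Counts below are therefore out of 33 members for untransformed cells and out of 34 for the clones. Together the 34 members and the Aldoa rows took 1.23% ± 0.070 (SD, n = 3) of all counts in wildtype DMSO, 0.941% ± 0.018 with etoposide and 1.63% ± 0.012 at high density. Gapdh, Eno1, Aldoa, Pgk1, Ldha, Tpi1, Pgam1 and Pkm have near-identical processed copies in the mouse genome, and the sources used here do not say how their shared reads were counted.

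**Figure D1:**
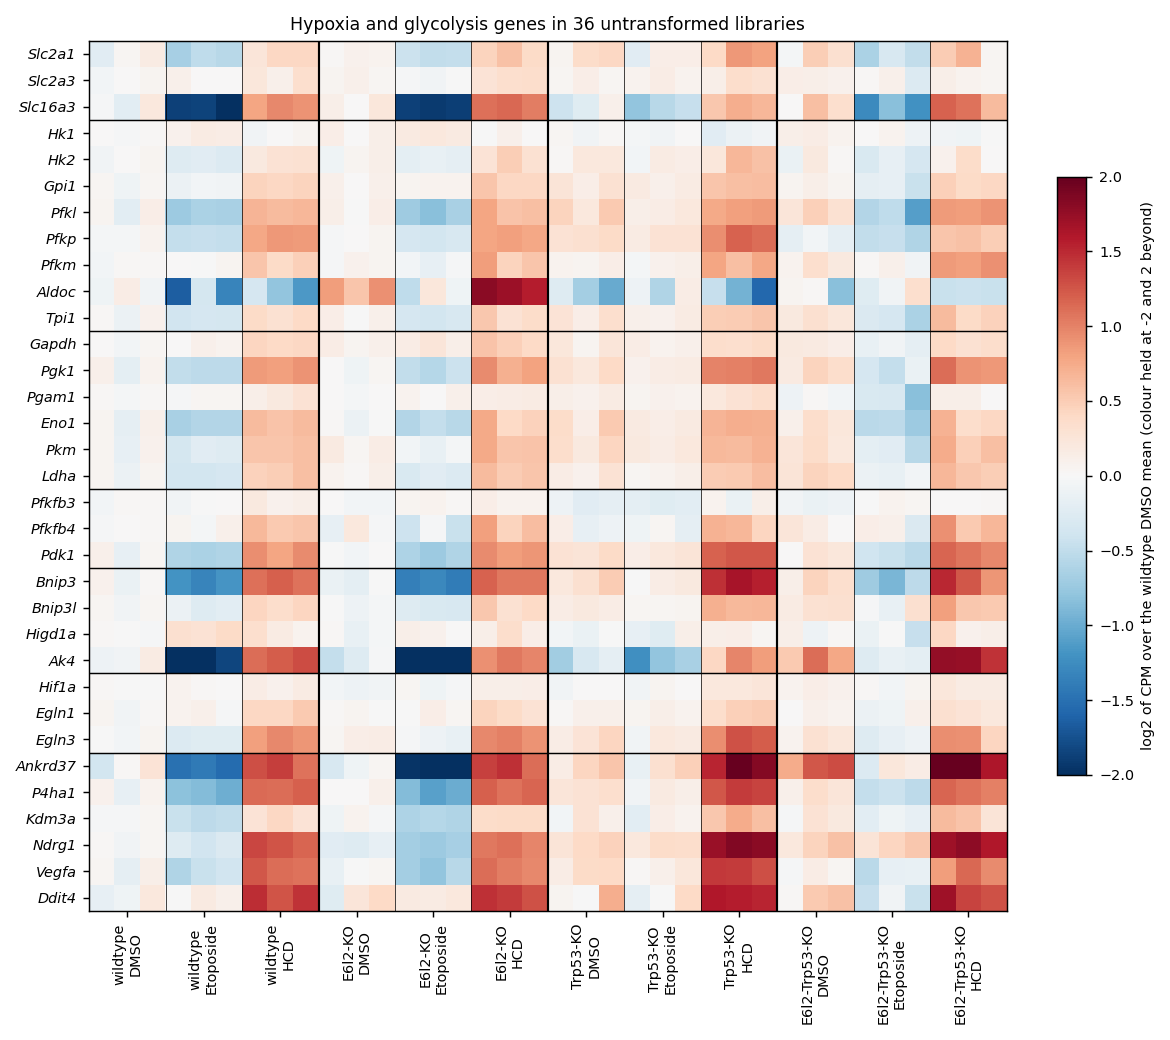
Each column is 1 of the 36 untransformed libraries and each row 1 of the 33 tested members, grouped by role; colour is the log2 of the library's CPM over the wildtype DMSO mean of that gene. Dense cultures are red in most rows of all genotypes, while etoposide columns are blue in many rows in wildtype, E6l2-KO and E6l2-Trp53-KO and pale in Trp53-KO.

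High cell density raised nearly the whole set in every genotype. With edgeR's quasi-likelihood test and Benjamini-Hochberg adjustment over all 14059 genes tested (called at an adjusted p under 0.05), 30 of 33 members rose and 1 fell in wildtype, where 24.9% of all genes were called higher and 23.6% lower. In E6l2-KO 31 rose and 0 fell, against 22.3% and 18.4% of all genes. In Trp53-KO 29 rose and 1 fell, against 23.9% and 20.9%, and in E6l2-Trp53-KO 25 rose and 1 fell, against 25.5% and 20.7%. The member medians were 0.52, 0.58, 0.43 and 0.35 on the log2 scale in that order, and the medians over all genes lay between -0.01 and 0.01. All comparisons of a treatment with DMSO in 1 genotype use the same 3 DMSO libraries, so the density and etoposide results are not independent of each other. Of the 33, 25 rose at density in all 4 genotypes, as did 15.4% of all genes. By role, in wildtype the 3 transporters, 6 of 8 upper and 6 of 6 lower glycolytic enzymes, the 3 flux switches (Pfkfb3, Pfkfb4 and Pdk1), 3 of 4 mitochondrial members, the 3 oxygen sensing members and the 6 other tested hypoxia targets rose. In E6l2-Trp53-KO the least complete role was transport, with 1 of 3. Other values moved with density too, and their part in these changes was not tested. In wildtype the 4 monocyte markers summed to 1380 to 1590 CPM in DMSO and 1965 to 2024 at density, and the 3 megakaryocyte markers to 82.8 to 97.1 and 140.6 to 170.2. In E6l2-Trp53-KO the monocyte sums overlapped, at 1057 to 1122 and 1010 to 1521 CPM, and the megakaryocyte sums were 152 to 162 and 238 to 275. Ribosomal protein genes took 14.2% to 14.5% of counts in wildtype DMSO, 17.1% to 17.6% with etoposide and 17.3% to 18.9% at density.

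The strongest risers at density were hypoxia targets outside the glycolytic chain. Ankrd37, an ankyrin repeat protein and a sensitive transcript of hypoxia, read 6.81, 8.96 and 10.6 CPM in wildtype DMSO and 21.6, 22.9 and 18.6 CPM at density. In Trp53-KO it read 9.77, 11.8 and 12.96 and then 25.2, 36.8 and 31.4 CPM. The groups did not overlap in either genotype, and the log2 fold changes were 1.25 ± 0.17 (SE) and 1.44 ± 0.17 (edgeR adjusted p = 3.68e-07 and 1.05e-08). Ddit4, which encodes REDD1, an inhibitor of the growth kinase mTORC1, rose from 12.9, 13.7 and 16.8 to 40.1, 34.6 and 39.3 CPM in wildtype, a log2 fold change of 1.40 ± 0.16, the largest of the set there. Ndrg1, a stress gene induced by hypoxia and by loss of growth signals, went from 10.4, 12.2 and 13.4 to 29, 30.9 and 27.2 CPM in E6l2-Trp53-KO, the largest change in that genotype at 1.27 ± 0.07. Dense libraries lay above every DMSO library for these genes in the genotypes named. Vegfa, the vessel growth factor, rose by 1.15, 1.07, 1.05 and 0.92 on the log2 scale in the 4 genotypes. P4ha1, a collagen prolyl hydroxylase subunit, rose by 1.15, 1.11, 1.04 and 0.86, and Kdm3a, a histone demethylase, by 0.32 to 0.51.

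The mitochondrial members rose with them. Bnip3, a receptor that tags mitochondria for removal, read 91.2, 78.03 and 87.3 CPM in wildtype DMSO and 183, 196 and 181 at density, a log2 fold change of 1.13 ± 0.10. In Trp53-KO the values were 99.4, 107 and 122 and 236, 267 and 252 CPM. Ak4, an adenylate kinase of the mitochondrial matrix, went from 9.29, 9.54 and 11.2 to 21.6, 23.2 and 24.6 CPM in wildtype (1.21 ± 0.14). Every dense library exceeded every DMSO library for both genes. Bnip3l, the relative of Bnip3 with the same role, moved less, by 0.38 to 0.51. Higd1a, a small respiratory chain protein, passed the test only in E6l2-KO, at 0.26 ± 0.09, with 0.17 to 0.20 in the other genotypes. Its density response was not called different in E6l2-KO by the interaction test (edgeR adjusted p = 0.9999).

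In the glycolytic chain the rise was broad and of smaller size. Pgk1, the kinase that makes the first ATP of the chain, went from 924, 752 and 901 to 1547, 1524 and 1603 CPM in wildtype, a log2 fold change of 0.86 ± 0.08. Of the phosphofructokinases, which commit sugar to glycolysis, Pfkp rose by 0.68 to 0.83, Pfkl by 0.40 to 0.66 and Pfkm by 0.48 to 0.66 across the 4 genotypes. Eno1, Pkm, Ldha, Gpi1, Tpi1 and Gapdh rose in all 4, by 0.18 (Gapdh in E6l2-Trp53-KO) to 0.61 (Eno1 in wildtype). The abundant Aldoa row rose in all 4 too, from 1157, 989 and 1182 to 1970, 1907 and 2013 CPM in wildtype. Pgam1 passed the test in wildtype alone, at 0.20, and had 0.13 to 0.17 elsewhere. Hk1, the widely expressed hexokinase, was the exception in the chain: it read 242, 237 and 246 CPM in wildtype DMSO and 231, 243 and 252 at density, and it fell in Trp53-KO (-0.13 ± 0.05) and in E6l2-Trp53-KO (-0.17 ± 0.05). Its inducible relative Hk2 rose in wildtype, E6l2-KO and Trp53-KO by 0.26 to 0.35. Aldoc was at 0.428 to 0.75 CPM in dense wildtype libraries and fell there by 0.72 on the log2 scale, while in E6l2-KO it rose from 1.69, 1.39 and 1.80 to 3.33, 3.10 and 2.84 CPM. The interaction of these Aldoc responses was 1.64 ± 0.38 with an adjusted p of 0.375, so the difference was not called.

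The transporters and switches at the ends of the pathway followed. Slc16a3 encodes MCT4, the exporter of lactate from glycolytic cells. It read 29.2, 25.9 and 34.3 CPM in wildtype DMSO and 51.5, 58.3 and 55.7 at density (0.88 ± 0.13). Slc2a1, the glucose transporter GLUT1, rose by 0.36, 0.41 and 0.43 in wildtype, E6l2-KO and Trp53-KO, and had 0.17 ± 0.13 in E6l2-Trp53-KO, where its 3 dense libraries read 55.6, 63.2 and 39.9 CPM. Pdk1, a kinase that turns off pyruvate dehydrogenase, rose by 0.88 to 0.92 in the 4 genotypes. Pfkfb4, which sets the level of the activator fructose 2,6-bisphosphate, rose by 0.58 to 0.63, and its relative Pfkfb3 by 0.12 to 0.19. With scaling by library totals alone, the median of all genes in wildtype moved to -0.15 and the Pfkfb3 change in wildtype and E6l2-KO became slightly negative (-0.0037 and -0.010).

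Among the oxygen sensors, Egln3 rose most. It read 109, 106 and 113 CPM in wildtype DMSO and 194, 213 and 201 CPM at density, and the log2 fold change was 0.89 ± 0.09 there and 0.58 ± 0.09 in E6l2-Trp53-KO. Egln1, the main hydroxylase of normoxic cells, rose by 0.21 to 0.45. Hif1a itself barely moved: 102, 98.5 and 98.5 CPM against 109.7, 105 and 112, a log2 fold change of 0.13 ± 0.04 that was called, and that turned to -0.010 with library totals alone. Of 12 tested genes that encode other parts of the HIF pathway, 3, 1, 2 and 2 rose and 2, 2, 2 and 3 fell at density in the 4 genotypes. All genes had 22.3% to 25.5% called higher and 18.4% to 23.6% lower, so these counts lie near that share or below it. Hif3a, a HIF relative that is itself a hypoxia target, rose in all 4 genotypes, by 0.58 to 1.00, and Arnt rose in 3 of them. Egln2, the hydroxylase that does not answer to hypoxia, fell in 3, by 0.26 to 0.30. In wildtype 1 of the falls was of 2-fold or more, and the lowest log2 value of the list there was -1.17. A further list of 23 hypoxia targets, of which 19 were tested, had 13, 14, 14 and 12 rises and 0, 0, 0 and 1 falls, led by Stc2 (1.02 in wildtype), Plod2 (0.99), Zfp395 (0.78) and Mxi1 (0.86). The hypoxia marker Car9, a carbonic anhydrase, rose by 0.68 to 0.82. A list of 16 further glycolysis isozymes, of which 9 were tested, had 3, 2, 2 and 3 rises and 1, 1, 3 and 1 falls. Its medians were 0.02, 0.09, -0.03 and -0.09 on the log2 scale, so this list did not share the broad rise of the members.

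The size of the density response was not called different between genotypes for any member. In the interaction tests 0 of 33 members were called between E6l2-KO and wildtype (0.00711% of all genes higher, 0% lower), 0 between Trp53-KO and wildtype (0.0569% and 0.0356%) and 0 between E6l2-Trp53-KO and Trp53-KO (0.256% and 0.0782%). At an unadjusted p under 0.05 edgeR gave 1, 2 and 5 members, beside 611, 2025 and 1127 of 14059 genes. DESeq2 called 0 members in each. In E6l2-Trp53-KO against Trp53-KO the difference was negative for 28 of 33 members, with a median of -0.13 against 0.01 over all genes.

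**Figure D2:**
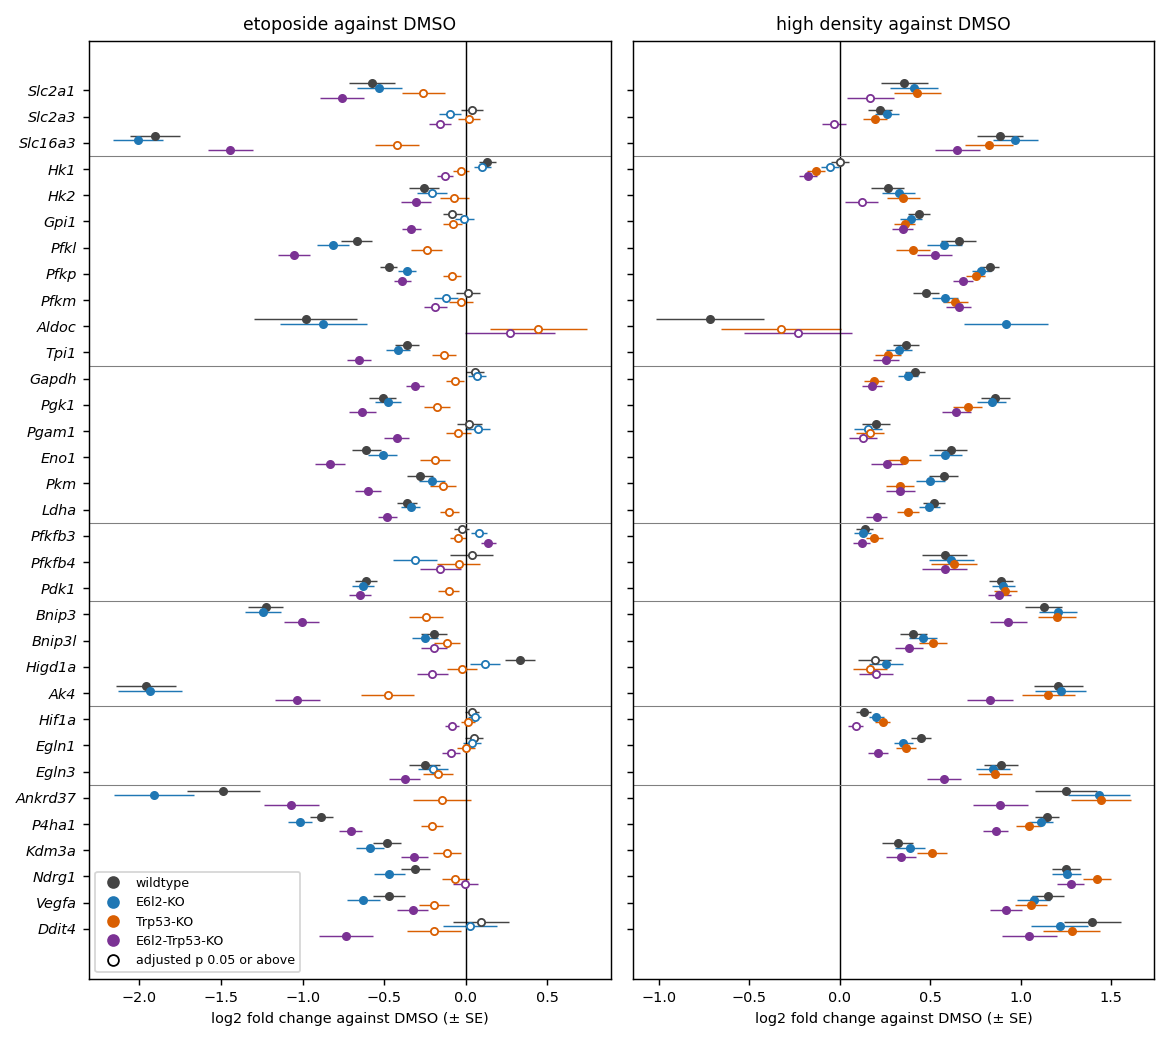
Log2 fold change against DMSO with its SE for each tested member, for etoposide on the left and high density on the right; colours are genotypes and open points did not pass an adjusted p of 0.05. Density values lie to the right of 0 for nearly all members in the 4 genotypes. Etoposide values lie to the left for most members in the 4 genotypes, by less in Trp53-KO, where none passed. Slc16a3, Ak4 and Ankrd37 lie farthest out in wildtype and E6l2-KO.

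Etoposide lowered many of the members in 3 of the 4 genotypes. In wildtype 21 of 33 members fell and 2 rose, against 21.1% and 20.3% of all genes. In E6l2-KO 19 fell and 0 rose, against 16.1% and 18.9%, and in E6l2-Trp53-KO 22 fell and 1 rose, against 7.25% and 5.97%. In Trp53-KO 0 fell and 0 rose, as for all genes (0% and 0%). The member medians were -0.31, -0.34, -0.11 and -0.37 in the 4 genotypes, beside medians over all genes between -0.01 and 0.01. Of the 25 members that rose at density in all 4 genotypes, 15 fell with etoposide in these 3 genotypes, against 1.71% of the 2162 genes that rose in that way. The whole pattern was shown by 0.263% of all genes tested, and the etoposide part alone by 16 members and 0.448% of all genes. The 15 were Ankrd37, Ak4, Bnip3, P4ha1, Vegfa, Pdk1, Slc16a3, Pgk1, Pfkp, Pfkl, Eno1, Ldha, Pkm, Kdm3a and Tpi1, and Slc2a1 fell in the same 3 without the full density pattern. Since both comparisons of a genotype share their DMSO libraries, a low or high DMSO library moves them in opposite directions, which these counts do not separate. By role, in wildtype 2 of 3 transporters, 5 of 8 upper and 4 of 6 lower glycolytic enzymes, 1 of 3 flux switches, 3 of 4 mitochondrial members, 1 of 3 oxygen sensing members and 5 of 6 other hypoxia targets fell.

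**Figure D3:**
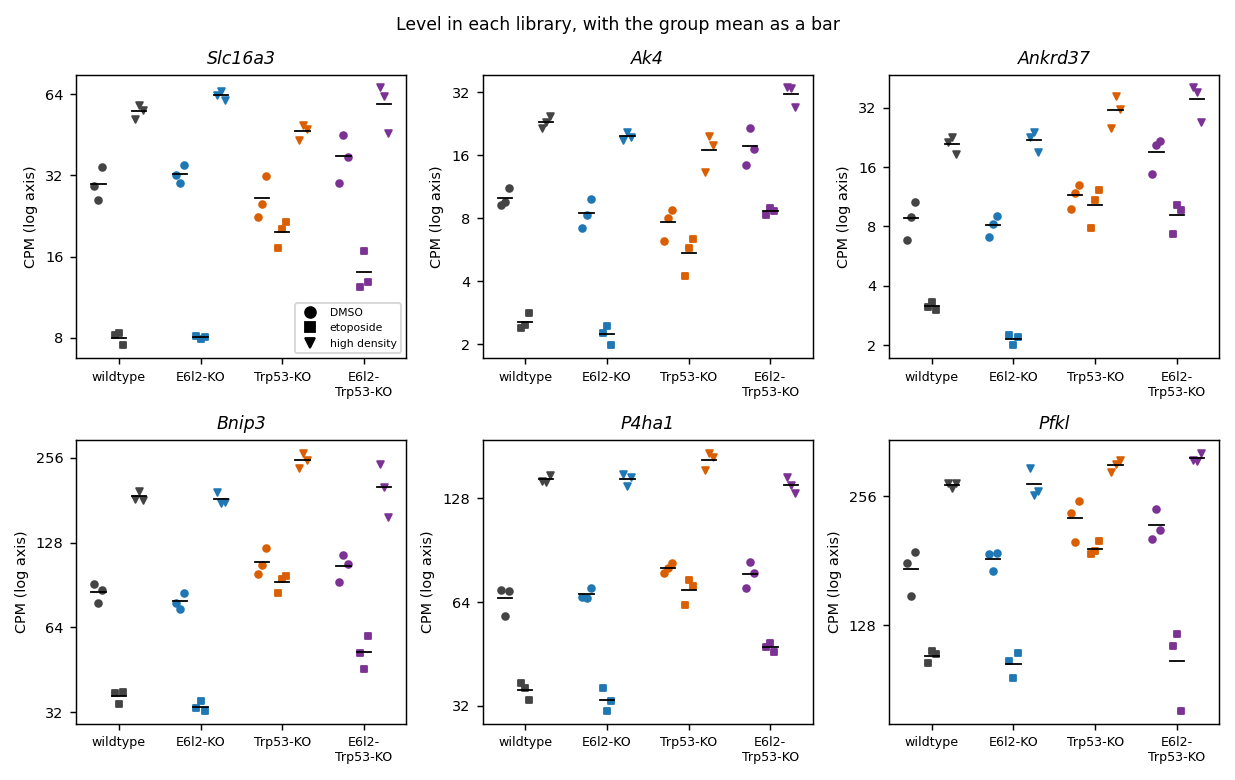
CPM on a log axis in each of the 36 untransformed libraries for 6 members; circles are DMSO, squares etoposide and triangles high density, colours are genotypes and bars are means of 3 libraries. In wildtype and E6l2-KO the 3 treatments form separate steps for all 6 genes, and in Trp53-KO the DMSO and etoposide libraries lie close together.

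Slc16a3 and Ak4 had the largest falls in wildtype and E6l2-KO, and Slc16a3 and Ankrd37 in E6l2-Trp53-KO. Slc16a3 read 8.21, 8.30 and 7.49 CPM with etoposide in wildtype against the DMSO values of 25.9 to 34.3 given above, and 8.14, 7.93 and 8.05 against 32.2, 30.04 and 34.8 CPM in E6l2-KO. In E6l2-Trp53-KO the values were 12.4, 16.7 and 12.9 against 30.03, 45.3 and 37.4 CPM. The groups did not overlap in these genotypes, and the log2 fold changes were -1.90 ± 0.15, -2.01 ± 0.15 and -1.44 ± 0.14 (edgeR adjusted p = 6.02e-11, 1.5e-11 and 1.74e-08). Ak4 fell to 2.39, 2.48 and 2.81 CPM in wildtype (-1.96 ± 0.18) and to 2.25, 2.46 and 1.98 CPM in E6l2-KO (-1.93 ± 0.19). In E6l2-Trp53-KO, whose DMSO cells held more Ak4 (14.3, 21.7 and 17.1 CPM), it fell to 8.32, 8.99 and 8.71 CPM (-1.03 ± 0.14). Ankrd37 went to 3.13, 3.31 and 3.02 CPM in wildtype (-1.49 ± 0.22) to 2.25, 1.99 and 2.20 in E6l2-KO (-1.91 ± 0.24) and to 7.30, 10.3 and 9.69 in E6l2-Trp53-KO (-1.07 ± 0.17). Bnip3 fell to 37.4, 34.3 and 37.9 CPM in wildtype, a log2 fold change of -1.23 ± 0.11, and by 1.24 in E6l2-KO and 1.00 in E6l2-Trp53-KO. For these 4 genes the etoposide libraries of wildtype, E6l2-KO and E6l2-Trp53-KO lay below every DMSO library of the same genotype.

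In glycolysis the fall was uneven. Pfkl, the liver-type phosphofructokinase, read 179, 149 and 190.1 CPM in wildtype DMSO and 105, 112 and 109.7 with etoposide (-0.67 ± 0.10), and in E6l2-Trp53-KO it went from 204, 239 and 214 to 115, 122 and 80.8 CPM (-1.05 ± 0.10). The deep replicate 3 was the lowest of the 3 there. Pgk1, Eno1 and Tpi1 fell in wildtype by 0.51, 0.61 and 0.36 and in E6l2-Trp53-KO by 0.63, 0.83 and 0.65 on the log2 scale. Pdk1 fell by 0.61, 0.63 and 0.65 in wildtype, E6l2-KO and E6l2-Trp53-KO, and P4ha1 by 0.88, 1.01 and 0.71. Gapdh, Gpi1 and Pgam1 did not pass the test in wildtype or E6l2-KO (-0.08 to 0.07) and fell in E6l2-Trp53-KO, by 0.31, 0.33 and 0.42. Their interaction between E6l2-Trp53-KO and Trp53-KO was not called (edgeR adjusted p = 0.205, 0.219 and 0.163). Pgam1 read 555, 544 and 381 CPM in E6l2-Trp53-KO with etoposide, the lowest value in the deep replicate 3. The members that rose with etoposide were Higd1a (0.33 ± 0.09) and Hk1 (0.13 ± 0.05) in wildtype and Pfkfb3 (0.14 ± 0.05) in E6l2-Trp53-KO. With library totals alone Hk1 had -0.056 in wildtype, where the median of all genes moved to -0.19.

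Ddit4, which was among the strongest at density, did not pass the test with etoposide in wildtype (0.09 ± 0.17) or E6l2-KO (0.02 ± 0.17), and fell in E6l2-Trp53-KO from 14.7, 20.7 and 21.7 to 10.4, 13.7 and 10.6 CPM (-0.73 ± 0.17). In Trp53-KO it was not called either, and the paired fit given below put it at -0.20 ± 0.064 (edgeR adjusted p = 0.147). The Ddit4 response was not called different between Trp53-KO and wildtype or between E6l2-Trp53-KO and Trp53-KO. Ddit4 is known as a target of p53 as well as of HIF, and the part of either in these values was not tested. Hif1a had -0.08 to 0.05 and Egln1 -0.09 to 0.05 across the genotypes, and neither was called. Egln3 fell in wildtype (-0.25) and E6l2-Trp53-KO (-0.37). In the HIF pathway list Egln2 rose in wildtype and E6l2-KO (0.24 and 0.19) and fell in E6l2-Trp53-KO (-0.23). The VHL complex partners Elob, Eloc and Rbx1 rose in wildtype by 0.57, 0.32 and 0.41 and in E6l2-KO by 0.35, 0.32 and 0.22, and Vhl itself was not called (0.13 and 0.16). That list had 4 rises and 2 falls in wildtype, 4 and 1 in E6l2-KO, 0 and 0 in Trp53-KO, and 0 and 2 in E6l2-Trp53-KO, of 12 tested. The falls in wildtype and E6l2-KO are counted and not named. The lowest log2 values of the list, called or not, were -0.60 in wildtype and -0.67 in E6l2-KO. Of all genes 20.3% rose and 21.1% fell in wildtype, 18.9% and 16.1% in E6l2-KO, 0% and 0% in Trp53-KO, and 5.97% and 7.25% in E6l2-Trp53-KO. The further hypoxia targets had 2 rises and 5 falls, 2 and 7, 0 and 0, and 0 and 8, of 19 tested, with Stc2 and Plod2 falling in 3 genotypes (Stc2 by 0.47, 0.70 and 0.80). The further glycolysis isozymes had 1 rise and 1 fall, 1 and 1, 0 and 0, and 0 and 0, of 9 tested.

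In Trp53-KO the members were displaced in the same direction by a small amount. Negative values were found for 30 of 33 members and none passed the test in the 36-library fit. There edgeR gave 8 members an unadjusted p under 0.05, all lower, beside 468 of 14059 genes in either direction. DESeq2 called 0 members, and edgeR without a filter on low counts called 1. Same-numbered DMSO and etoposide libraries among these 6 deviated together, however, with correlations of 0.144, 0.206 and 0.127 over genes. Single pairs reached 0.29 in comparisons where the 3 pairs did not all deviate together. Libraries of unlike number were not compared and no label states a shared batch, so it is not established that the numbers pair them. A paired edgeR fit of the 6 libraries called 12 of 33 members lower and 0 higher, against 0.533% of 12934 genes lower and 0.595% higher. They were Slc16a3 (-0.42 ± 0.055, edgeR adjusted p = 8.07e-07), Ak4 (-0.49 ± 0.099), Slc2a1 (-0.27 ± 0.040), Bnip3 (-0.24 ± 0.035), Pfkl (-0.23 ± 0.037), P4ha1 (-0.21 ± 0.037), Vegfa, Eno1, Pgk1, Egln3, Pkm and Tpi1, the last 6 between -0.19 and -0.13. Slc16a3 read 22.4, 25.1 and 31.9 CPM in DMSO and 17.2, 20.2 and 21.6 with etoposide, lower in each numbered pair. A fit of the same 6 libraries without the pairing called 0 members, as did the block in the 36-library fit. The paired fit was chosen after the data were seen.

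The etoposide responses of Trp53-KO and wildtype differed for 14 members. In the interaction test 13 were higher in Trp53-KO, that is less lowered, and 1 was lower, against 12.1% and 11.1% of all genes. The differences were largest for Slc16a3 (1.48 ± 0.21), Ak4 (1.48 ± 0.25), Ankrd37 (1.34 ± 0.29) and Bnip3 (0.98 ± 0.15), and for Aldoc at about 1 CPM (1.43 ± 0.43). Without Trp53-KO etoposide replicate 3 the count was 9. E6l2-KO and wildtype showed no called difference in 33 members (0.00711% of all genes higher and 0.00711% lower), and DESeq2 called 0. At an unadjusted p under 0.05 edgeR gave 0 members, beside 1021 of 14059 genes.

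Between E6l2-Trp53-KO and Trp53-KO, 8 members differed in their etoposide response, all lowered more in E6l2-Trp53-KO, where 0.114% of all genes were called lower and 0.0925% higher. These were Slc16a3 (-1.02 ± 0.19), Pfkl (-0.81 ± 0.14), Bnip3 (-0.76 ± 0.15), Eno1 (-0.64 ± 0.13), Pdk1 (-0.54 ± 0.09), Tpi1 (-0.52 ± 0.10), P4ha1 (-0.50 ± 0.10) and Ldha (-0.38 ± 0.08). The difference was negative for 31 of 33 members with a median of -0.26, against 0.00 over all genes. The count rests on single libraries: it was 2 without E6l2-Trp53-KO DMSO replicate 2, Trp53-KO DMSO replicate 1 or Trp53-KO etoposide replicate 3, 5 without E6l2-Trp53-KO etoposide replicate 3 or Trp53-KO etoposide replicate 2, and 13 without E6l2-Trp53-KO etoposide replicate 1 or 2. A fit of only the 4 groups called 0, and the fit with no filter called 16. The etoposide response of E6l2-Trp53-KO against its own DMSO called 22 members, all lower, without the deep replicate 3, and 14 in a fit of only its 6 libraries.

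Values that moved with etoposide outside these genes are given here, and their part in the result was not tested. The p53 target Cdkn1a rose in wildtype from 3.41, 2.73 and 3.19 to 12.4, 14.1 and 15.1 CPM and in E6l2-KO, and was not called in Trp53-KO or E6l2-Trp53-KO. The 10 progenitor markers summed to 7544 to 8076 CPM in wildtype DMSO, 8937 to 9369 with etoposide and 9862 to 10620 at density, and in E6l2-Trp53-KO to 6535 to 7127 and 6320 to 6668. The 5 mast cell and basophil markers, of which Fcer1a was at 0, summed to 1527 to 1546 CPM in wildtype DMSO, 1988 to 2043 with etoposide and 1409 to 1538 at density. The share of counts on loci that the annotation files as TEC, of unproven status, was 0.339% in wildtype DMSO, 0.168% with etoposide and 0.278% at density, and in E6l2-Trp53-KO 0.238%, 0.290% and 0.293%.

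Without treatment, the genotypes differed modestly. In DMSO, 13 members were higher and 1 lower in Trp53-KO than in wildtype, against 3.54% and 5.49% of all genes. The called members were glycolytic genes (Pfkl 0.40, Eno1 0.35, Pkm 0.33, Pfkp 0.33, Pgk1 0.31, Tpi1, Gpi1 and Gapdh), Pdk1, Bnip3, P4ha1, Ndrg1 and Vegfa, at 0.17 to 0.40 on the log2 scale. Pfkfb3 was lower (-0.16). Pfkp read 121, 120.2 and 129.8 CPM in wildtype DMSO and 151, 154 and 162 in Trp53-KO DMSO, without overlap. The count fell to 4 without Trp53-KO DMSO replicate 3 and to 3 without wildtype DMSO replicate 2, whose glycolytic members were the lowest of their group (Pfkl 149 CPM against 179 and 190.1).

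E6l2-KO and wildtype had no called member in DMSO, against 1.56% of genes higher and 2.49% lower. At an unadjusted p under 0.05 edgeR gave 1 member higher and 1 lower, beside 2206 of 14059 genes in either direction. DESeq2 called 0 members, and a fit of only the 6 libraries called 1. With p53 absent, E6l2-Trp53-KO differed from Trp53-KO in 5 members, 4 higher and 1 lower, against 8.14% and 6.79% of genes. These counts lie near those shares. Ak4 had 6.20, 8.04 and 8.79 CPM in Trp53-KO DMSO and 14.3 to 21.7 in E6l2-Trp53-KO DMSO (1.22 ± 0.14, edgeR adjusted p = 6.27e-08), and Ankrd37 9.77, 11.8 and 12.96 against 14.7, 20.7 and 21.8 CPM (0.74 ± 0.17). Neither pair of groups overlapped. Slc16a3 (0.52) and Ldha (0.19) were also higher, and Pfkp was lower (-0.47 ± 0.05). The count was 3 without E6l2-Trp53-KO DMSO replicate 2. Against E6l2-KO, E6l2-Trp53-KO had 11 members higher and 2 lower (8.88% and 7.96% of genes), led by Ankrd37 (1.24), Ak4 (1.06) and Ndrg1 (0.64), with Aldoc and Pfkp lower, and 8 without E6l2-Trp53-KO DMSO replicate 3.

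In the transformed clones the members split. Each clone was set against DMSO cells of its own genotype in a fit of 18 libraries and 14403 genes. Clone 4 had 10 of 34 members higher and 19 lower (all genes 41.7% and 38.7%), clone 6 had 11 and 21 (38.5% and 38.9%), clone 7 had 10 and 19 (40.6% and 38.9%) and clone 12 had 11 and 21 (40.4% and 39.3%). The lower members made up 55.9% (clones 4 and 7) or 61.8% (clones 6 and 12) of the 34 and the higher ones 29.4% or 32.4%. Most genes of the whole table were called in each comparison too. Scaled by library totals alone the splits were 7 higher and 22 lower, 7 and 22, 7 and 25, and 7 and 23. The 2 clones of a genotype share their DMSO libraries. In all 4 clones 7 members were higher and 16 were lower, beside 29.1% and 29.1% of all genes. Pfkp, Bnip3l, Ddit4 and Slc2a3 were higher in some clones and lower in others, as were 8.29% of all genes. The marker values of the clones given above, with a higher mast cell sum and a lower progenitor sum, moved with these changes in every clone, and their part in them was not tested.

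**Figure D4:**
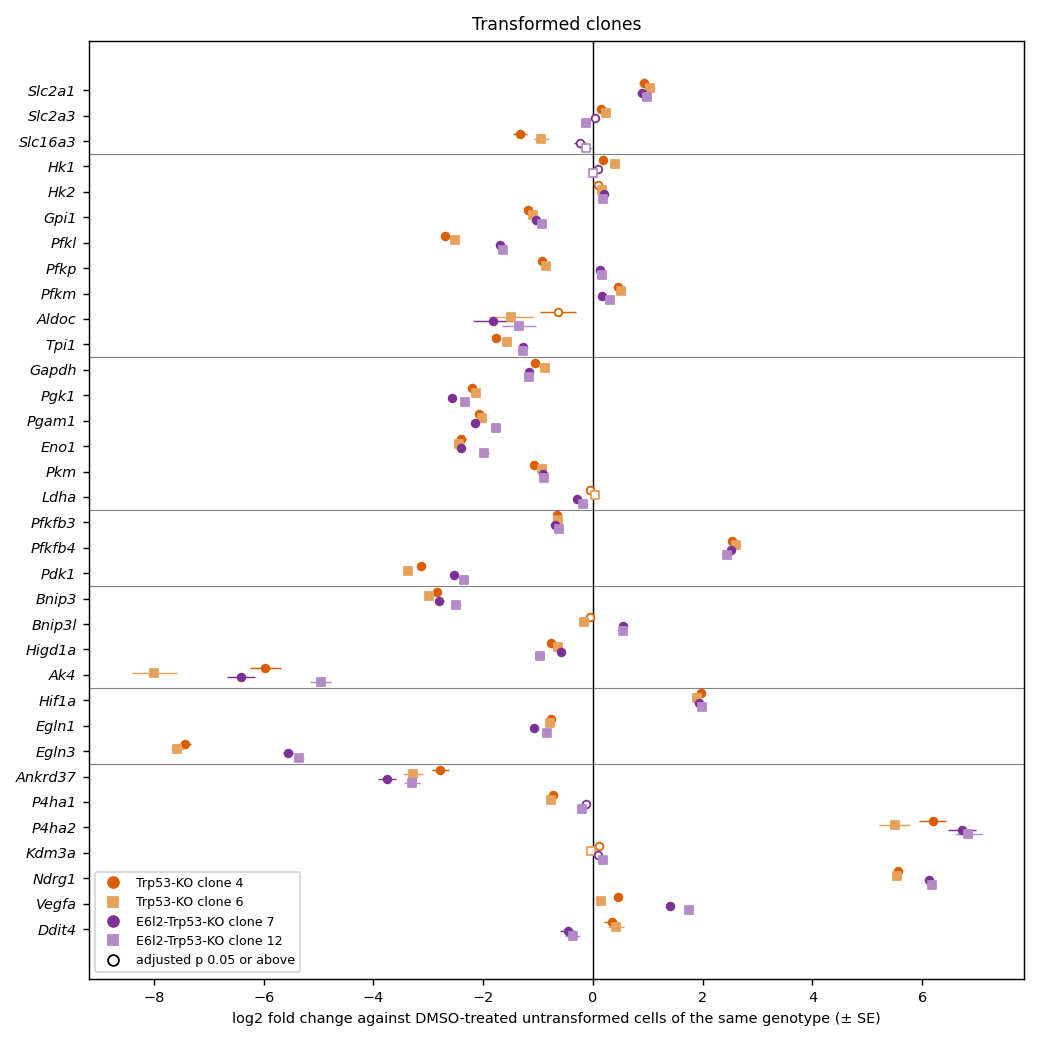
Log2 fold change of each clone against DMSO-treated untransformed cells of its genotype, with SE, for the 34 members grouped by role; circles and squares are the 2 clones of a genotype, colours the genotypes, and open symbols did not pass an adjusted p of 0.05. Egln3, Ak4, Ankrd37, Pdk1 and Bnip3 lie far to the left, Ndrg1, P4ha2, Pfkfb4 and Hif1a far to the right, and Pfkp, Pfkl and Vegfa separate the genotypes.

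Egln3 and Ndrg1, both well-known hypoxia targets, went in opposite directions. Egln3 read 115, 126 and 138 CPM in Trp53-KO DMSO and 0.614, 0.738 and 0.779 in clone 4 and 0.483, 0.637 and 0.869 in clone 6. In E6l2-Trp53-KO it went from 109.6, 129 and 124 CPM to 2.49, 2.49 and 2.68 in clone 7 and 2.77, 2.68 and 3.12 in clone 12. The log2 fold changes were -7.43 ± 0.11, -7.58 ± 0.12, -5.56 ± 0.10 and -5.35 ± 0.09. Ndrg1 rose from 10.2, 11.3 and 11.6 CPM to 516, 516 and 526 in clone 4 and 515, 515 and 503 in clone 6, and from 9.89, 11.7 and 12.9 to 788, 801 and 828 in clone 7 and 804, 804 and 883 in clone 12. These were log2 fold changes of 5.54 ± 0.08 (clone 6) to 6.17 ± 0.08 (clone 12), and no clone library overlapped a DMSO library.

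Ak4 nearly vanished. Its 3 libraries in clone 6 held 2 counts in all against 596 in Trp53-KO DMSO, a ratio of 289 with an exact 95% interval from counting error alone of 79.8 to 2395. Clone 4 held 14 counts, a ratio of 64.1 (37.88 to 117.9). Against 1659 counts in E6l2-Trp53-KO DMSO, clone 7 held 16, a ratio of 87.7 (53.8 to 154), and clone 12 held 86, a ratio of 31.6 (25.5 to 39.8). P4ha2, barely read before, was at 8.63, 7.47 and 8.30 CPM in clone 4, 4.83, 4.97 and 5.37 in clone 6, 8.11, 7.58 and 8.31 in clone 7 and 8.96, 8.33 and 8.76 in clone 12, while the DMSO libraries of Trp53-KO held 9 counts in all and those of E6l2-Trp53-KO 7. Its relative P4ha1 fell in clones 4 and 6 (-0.73 and -0.76) and less in clone 12 (-0.19). Ankrd37, which had led the density response, stood at 1.41, 1.65 and 1.65 CPM in clone 4 and 1.98, 2.03 and 1.75 in clone 12, changes of -2.78 and -3.30. Hif1a rose in all 4 clones, from 90, 96.5 and 94.1 CPM in Trp53-KO DMSO to 345, 379 and 379.7 in clone 4, a log2 fold change of 1.98 ± 0.05, and by 1.91, 1.93 and 1.98 in clones 6, 7 and 12. Around it, Vhl rose by 1.65 to 1.87, Cited2, a HIF-inducible competitor for its co-activators, by 1.07 to 1.72, Arnt by 0.59 to 0.96 and Egln2 by 0.59 to 0.72, and Hif3a fell by 2.24 to 3.56. The HIF pathway list had 7, 6, 8 and 7 of 12 members higher and 3, 3, 3 and 4 lower in clones 4, 6, 7 and 12. Of all genes 38.5% to 41.7% were called higher and 38.7% to 39.3% lower.

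The later steps of glycolysis, from Gapdh to Pkm, were lower in every clone. Eno1 went from 1209, 1035 and 1320 CPM in Trp53-KO DMSO to 235, 220.4 and 219 in clone 4 (-2.40 ± 0.08). Pgk1 fell by 2.13 to 2.57 on the log2 scale, Pgam1 by 1.77 to 2.15, Gapdh by 0.87 to 1.17 and Pkm by 0.89 to 1.08. Ldha, which turns pyruvate into lactate, moved little, with -0.05 and 0.04 in clones 4 and 6, not called, and falls of 0.29 and 0.19 in clones 7 and 12. Upstream, Gpi1 fell by 0.94 to 1.18 and Tpi1 by 1.27 to 1.76, while Slc2a1 rose by 0.89 to 1.04 and Pfkm by 0.16 to 0.50. With library totals alone the Pfkm change in clone 7 was -0.091. Egln1 fell by 0.76 to 1.08, Higd1a by 0.59 to 0.96 and Pfkfb3 by 0.61 to 0.69. Slc16a3 fell in clones 4 and 6 (-1.33 and -0.94) and was not called in clones 7 and 12 (-0.24 and -0.13). Kdm3a, Hk1, Hk2 and Slc2a3 lay between -0.12 (Slc2a3 in clone 12) and 0.39 (Hk1 in clone 6). Pdk1 fell by 2.35 to 3.38, Bnip3 by 2.49 to 2.99, and Pfkfb4 rose by 2.44 to 2.61. Of the members that had risen at density in all 4 genotypes, 14 were lower and 4 (Vegfa, Ndrg1, Pfkm and Pfkfb4) higher in all 4 clones, against 30.5% and 38.3% of the 2154 genes tested that had risen likewise. Among further hypoxia targets both directions were found, with Bhlhe40 up by 3.82 to 4.01 and Plod1 by 2.29 to 2.58, and Plod2 and Stc2 down by 1.62 to 5.91. That list had 7, 6, 6 and 7 rises and 10, 10, 11 and 11 falls of 19. The shares of all genes were 38.5% to 41.7% higher and 38.7% to 39.3% lower.

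Clones of the 2 genotypes were compared with the libraries of a clone summed, since clones are the replicates, 2 against 2. In E6l2-Trp53-KO clones 10 of 34 members were higher and 1 lower than in Trp53-KO clones, against 15.3% and 13.8% of 15865 genes. Among the called members Egln3 had the largest difference (2.02 ± 0.23, edgeR adjusted p = 0.00363), though it was at 0.483 to 3.12 CPM throughout. Ak4, with the few counts given above, had 2.37 ± 0.77 and was not called (edgeR adjusted p = 0.0743). Slc16a3 read 8.99 to 13.7 CPM in the 6 libraries of clones 4 and 6 and 29.3 to 36.02 CPM in those of clones 7 and 12 (1.48 ± 0.15). Vegfa read 33.3 to 45.5 CPM and 69.3 to 90.7 (1.07 ± 0.15), and Pfkl 32.7 to 39.2 and 62.6 to 68.8 (0.89 ± 0.09). Neither overlapped between genotypes. Bnip3l (0.80), Pdk1 (0.73), Ndrg1 (0.71), Pfkp (0.59), P4ha1 (0.55) and Tpi1 (0.42) were also higher, and Ddit4 was lower (-0.63). The abundant Aldoa row was lower too, at 318 to 388 CPM against 801 to 957 (-1.31 ± 0.13). Slc16a1, which encodes the lactate transporter MCT1, went the other way from Slc16a3, with -2.04. Leaving out 1 clone at a time gave 9 to 11 called members, and leaving out the 2 deepest libraries 11.

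**Figure D5:**
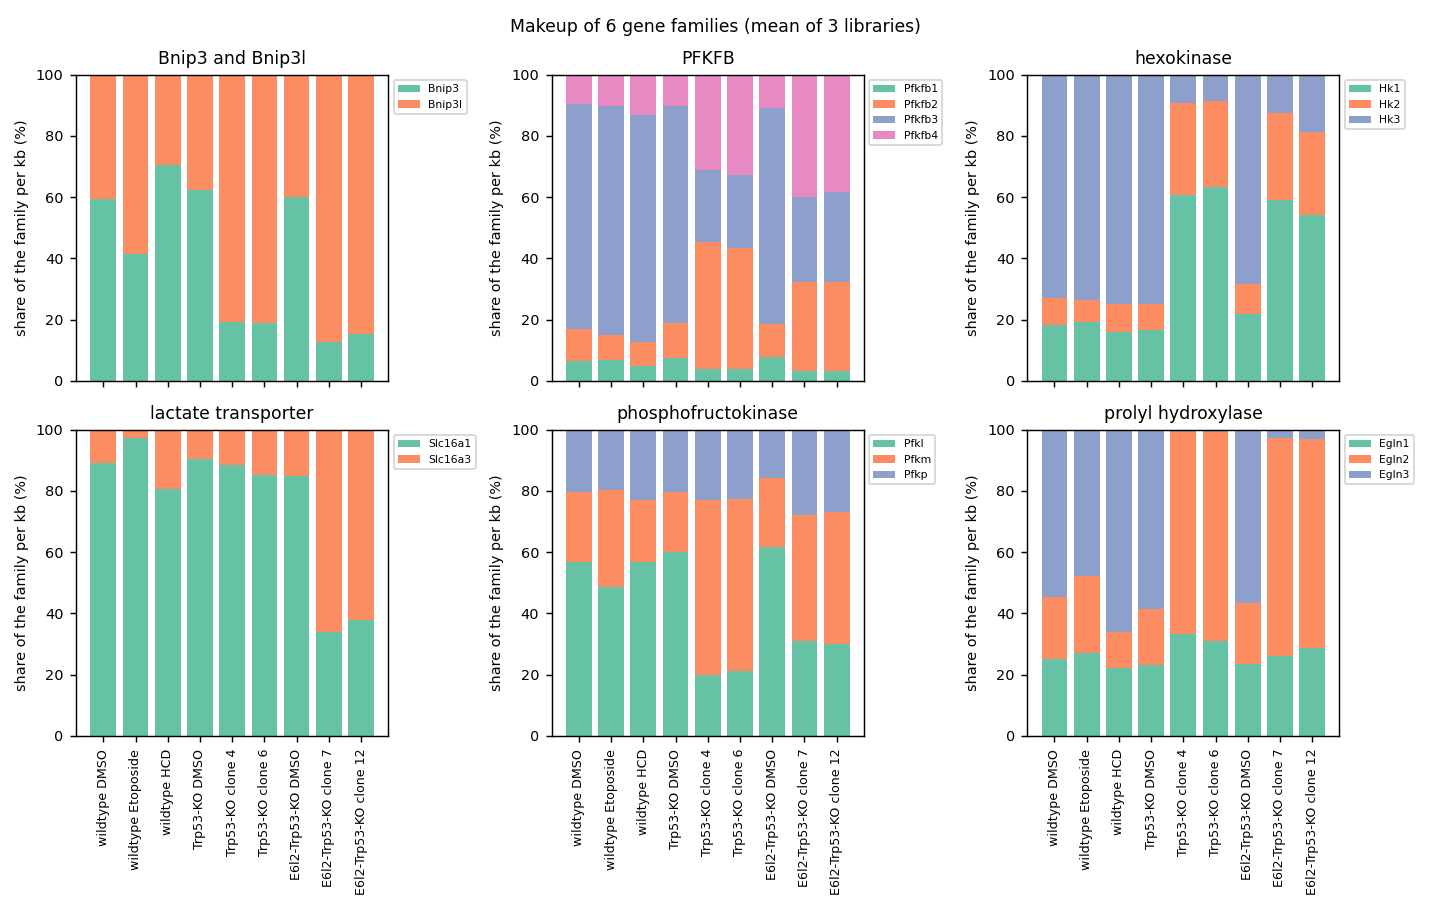
Share of each member of 6 gene families in the family's CPM per kb of exon, as the mean of 3 libraries, in wildtype cells, in DMSO cells of both p53-deficient genotypes and in the 4 clones. Hk3, Pfkfb3 and Egln3 hold most of their families in untransformed cells, apart from Egln3 in wildtype with etoposide, and lose that place in the clones. Slc16a3 holds most of the lactate transporter pair in the E6l2-Trp53-KO clones.

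These changes altered which isozyme led its family, measured as the share of the family's CPM per kb (mean ± SD, n = 3). Hk3, the myeloid hexokinase, held 74.7% ± 0.63 of the hexokinases in Trp53-KO DMSO and 9.39% ± 0.22 in clone 4, where Hk1 held 60.8% ± 0.15. Pfkl held 59.98% ± 2.3 of the phosphofructokinases in Trp53-KO DMSO and 19.9% ± 0.3 in clone 4, and Pfkm, the muscle type, went to 57.2% ± 0.6 there. Within wildtype, the Pfkl share went from 56.7% ± 2.9 to 48.6% ± 0.81 with etoposide, and at density it was 56.9% ± 0.16. Egln3 held 54.7% ± 0.54 of the prolyl hydroxylases in wildtype DMSO, 47.9% ± 0.28 with etoposide and 65.99% ± 1.4 at density. In the clones it held at most 2.97% ± 0.28, and Egln2 held 65.95% ± 1.7 (clone 4) to 71.04% ± 1 (clone 7). For lactate transport, the Slc16a3 share of the pair with Slc16a1 was 10.8% ± 1.6 in wildtype DMSO, 2.88% ± 0.17 with etoposide and 19.4% ± 0.82 at density. It was 11.7% ± 0.95 and 14.7% ± 1.1 in clones 4 and 6 but 65.9% ± 2.4 and 62.04% ± 2.3 in clones 7 and 12. Bnip3 held 59.2% ± 0.98 of the pair with Bnip3l in wildtype DMSO, 41.6% ± 1.1 with etoposide, 70.5% ± 1.5 at density and 12.8% ± 0.77 in clone 7. No test was run on these shares, and the spread between libraries is given by their SD.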

How the data were processed

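RNA-seq was made from 48 libraries of sorted cells with the PicoPure RNA kit and the TruSeq RNA Library Prep Kit V2 per the labels' protocols; sorting, an Illumina NovaSeq and mapping in the SUSHI pipeline are named in the series' design text. The authors deposited 1 table of expected counts per gene for all 48 libraries, matched to the samples by library name, in which 58.1% of values above 0 lay within 0.01 of a whole number; the aligner, counter and build inside SUSHI are not named in the sources used here, and no label says that counting used strand. Expected counts were rounded to whole numbers. Groups came from the labels. Genes were tested with edgeR 4.0.16 (R 4.3.3, limma 3.58.1; TMM scaling, its filter on low counts, quasi-likelihood F test, Benjamini-Hochberg adjustment, called at an adjusted p under 0.05) in 3 fits: 36 untransformed libraries (14059 genes, 24 residual degrees of freedom), 12 transformed with 6 DMSO libraries (14403 genes, 12 degrees of freedom), and clone sums (15865 genes). CPM are on the TMM scale, and SE were computed as log2 fold change over the root of F. Totals ran from 22500222 to 114409923 counts; intervals and the limit of 3 counts cover counting error only. The scripts were tested on simulated data. Alternatives were DESeq2 1.42.0, its RLE scaling, library totals alone, no filter, a length and GC offset (spline with 5 degrees of freedom), fits of only the groups compared, a replicate block and leaving out each library.

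Same-numbered libraries of Trp53-KO DMSO and etoposide deviated together (r = 0.144, 0.206 and 0.127, all over 0.1), and a paired fit was therefore added. No label states a shared batch, and libraries of unlike number were not compared, so the pairing is not established. No other comparison of treatments or genotypes passed that check in all 3 pairs. The members and gene lists were chosen with earlier results of these data known. Genes are named if called in the most treatment comparisons or if they had the largest log2 fold change among called members whose higher group averaged 5 CPM or more. Hif1a is given whatever its value. Of the HIF pathway list the tested genes are counted and only some are named.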

Additional observations from a re-analysis of the deposited data

Results flagged for a closer look

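Some results were singled out because the response to etoposide differed between genotypes by a test of the difference itself. Between Trp53-KO and wildtype 14 members differed, with Slc16a3 (1.48), Ak4 (1.48) and Aldoc (1.43) farthest apart on the log2 scale, and Aldoc at about 1 CPM. Between E6l2-Trp53-KO and Trp53-KO 8 members differed, led by Slc16a3 (-1.02), Pfkl (-0.81) and Bnip3 (-0.76).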

How the results depend on the processing

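Of 370 called pairs of a member and a comparison, 365 kept direction and call with DESeq2, 367 with RLE scaling, 357 with no filter and 321 with library totals alone; of 359, 333 did with the length and GC offset and 335 in fits of only the groups compared. Leaving out 1 library kept 2090 of 2330 and reversed 0. The number of called members moved by over 1.5 times as follows, and the cause was not tested. Etoposide in Trp53-KO gave 1 with no filter, and 12 with the replicate block in a fit of its 6 libraries; etoposide in E6l2-Trp53-KO gave 14, E6l2-KO against wildtype in DMSO 1 and the E6l2-Trp53-KO against Trp53-KO etoposide difference 0 in fits of only the groups compared. That difference gave 16 with no filter, and the matching density difference 1. E6l2-Trp53-KO against Trp53-KO in DMSO gave 8 with the length and GC offset. With 1 library left out, Trp53-KO against wildtype gave 3 to 15 in DMSO and 9 to 14 for the etoposide difference, E6l2-Trp53-KO gave 3 to 5 against Trp53-KO and 8 to 14 against E6l2-KO in DMSO, and 2 to 13 for its etoposide difference from Trp53-KO.

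With library totals alone the median of all genes moved by over 0.1 in several comparisons, to -0.19 and -0.14 for etoposide in wildtype and E6l2-KO, to -0.15, -0.15 and -0.10 for density in wildtype, E6l2-KO and E6l2-Trp53-KO, to -0.056, -0.17, -0.22 and -0.19 in clones 4, 6, 7 and 12 and to 0.18 for the Trp53-KO against wildtype etoposide difference. The sign of 12 small changes turned: Hif1a (-0.010) and Pfkfb3 (-0.0037) at density in wildtype, Pfkfb3 (-0.010) in E6l2-KO, Hk1 (-0.056) with etoposide in wildtype, Hk2 in clones 6, 7 and 12 (-0.0080, -0.051 and -0.018), Kdm3a (-0.026) in clone 12, Pfkm (-0.091) in clone 7, Pfkp in clones 7 and 12 (-0.12 and -0.047) and Vegfa (-0.019) in clone 6. Bnip3l with etoposide in wildtype was 0.0062 with the length and GC offset.

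The replicate block in the larger fits changed 0 of 359 calls to not called. It gave 20 called members for etoposide in E6l2-KO, 17 for Trp53-KO against wildtype in DMSO and 11 for the etoposide difference between E6l2-Trp53-KO and Trp53-KO. No paired analysis was possible for the clone sums because the 4 clones carry no shared numbers.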

Other observations

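Genes of neighbouring pathways gave the following counts, with no test of a difference from the glycolytic members. With etoposide, 8 of 16 citric acid cycle genes rose in wildtype and 13 in E6l2-KO, with 0 falls, beside 20.3% and 18.9% of all genes called higher. In E6l2-Trp53-KO 0 rose and 2 fell, beside 5.97% and 7.25% of all genes. Mdh2, the malate dehydrogenase of mitochondria, rose by 0.28 and 0.41 and Sdhb, a succinate dehydrogenase subunit, by 0.31 and 0.30 on the log2 scale in wildtype and E6l2-KO. Of 8 pentose phosphate genes 4 and 7 rose in wildtype and E6l2-KO and 2 fell in E6l2-Trp53-KO. Among the risers were Taldo1 (0.39 and 0.38) and Pgls (0.46 and 0.32). At density the cycle had 1, 0, 0 and 0 rises and 2, 5, 8 and 6 falls in the 4 genotypes, with Idh3a lowest in E6l2-Trp53-KO (-0.55), and the pentose phosphate genes had 1, 0, 0 and 1 rises and 3, 3, 4 and 3 falls. All genes had 22.3% to 25.5% called higher and 18.4% to 23.6% lower at density, so several of these counts lie near that share.

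Pcx, pyruvate carboxylase, which feeds pyruvate into the cycle, fell with etoposide in wildtype (-0.61) and E6l2-KO (-0.45) and rose at density in the 4 genotypes by 0.47 to 0.85. In the clones Pcx rose by 1.47 to 3.29 and Eno2, the neuronal enolase, by 4.13 to 6.19, while 14, 13, 14 and 14 of the 16 cycle genes fell in clones 4, 6, 7 and 12 (all genes 38.7%, 38.9%, 38.9% and 39.3%). Ldhb, the other main lactate dehydrogenase gene, was listed at 0 in the 6 DMSO libraries set beside the clones and at 0.496, 0.58 and 0.645 CPM in clone 12.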
